A study of Saccharomyces cerevisiae with 4 samples.

Results

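The nucleolar ribosome biogenesis factor genes are 57 nuclear genes of *S. cerevisiae* that code for proteins of rRNA processing and ribosome assembly, and they were chosen from 6673 listed genes by a fixed list of identifiers that holds no ribosomal protein. All 57 were found in the deposited files, and all 57 passed the filter on low values. By their textbook roles, 3 are core proteins of box C/D snoRNPs, 4 are core proteins of H/ACA snoRNPs, 22 act on the 40S side, 25 act on the 60S side, and 3 (HAS1, RRP5 and NOP13) were put on neither side. RNA was sequenced from 2 WT and 2 *PUF3Δ* libraries of yeast that had been grown overnight in YPD and then moved to YPEG, in which cells feed on ethanol and glycerol and must respire. The labels give BY4742 as the strain of all 4 libraries. For the wild type they add MATa with the alleles his3Δ1, leu2Δ0, met15Δ0 and ura3Δ0, and the *PUF3Δ* libraries differ from it in their labels by the deletion of *PUF3* alone. Labels and methods do not say whether the libraries of a strain came from separate cultures, so p-values measure only the spread between these libraries.

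Ribosomes are made in the nucleolus, where a long precursor rRNA is transcribed, modified, folded and cut. Box C/D snoRNPs guide methylation of the rRNA and H/ACA snoRNPs guide its conversion to pseudouridine. The small subunit processome, built around the U3 snoRNA, assembles the 40S precursor, and a series of pre-60S particles carries the large subunit precursor to the cytoplasm. In budding yeast many genes of this pathway share 2 promoter elements, PAC and RRPE, and are known to be transcribed together when cells grow fast. Puf3p is an RNA-binding protein that binds mRNAs of mitochondrial proteins, while its relative Puf4p is known to bind mRNAs of nucleolar proteins.

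The promoter elements that the members share are shown first. The members were chosen without their sequence, but PAC and RRPE were searched because they are known elements of genes of this pathway. High shares are therefore a description and not an independent result. The window was 250 bases before to 50 bases after the start codon in R64 (RefSeq), searched on both strands. PAC, searched as GCGATGAG, was found in 32 of the 57 windows (56.1%), against 3.93% of 6001 windows of nuclear protein-coding genes. RRPE, searched as AAAAATTTT, was found in 41 windows (71.9%), against 6.98%. Both elements together were in 22 members (38.6%) and in 1.65% of all genes. None of the 7 snoRNP protein genes held GCGATGAG, while 6 of them held RRPE. The shorter PAC core GATGAG was in all 3 box C/D and all 4 H/ACA genes, against 20.4% of all genes. The lack of PAC thus holds for the longer string only. The stretch around the matches is given for NAN1 (chrXVI:310053-310104, plus strand), UTP15 (chrXIII:453872-453919, plus strand), NHP2 (chrIV:87378-87407, plus strand), NOG2 (chrXIV:723247-723303, minus strand), PWP2 (chrIII:223357-223393, minus strand) and NOP7 (chrVII:695266-695330, plus strand), since UTP15, NHP2 and NOG2 had the lowest log2 fold changes of the 40S side, the H/ACA proteins and the 60S side, NAN1 had the highest of all members, PWP2 holds both elements side by side and NOP7 holds RRPE on either side of PAC. Each is on the coding strand, with PAC and RRPE matches of either strand in capitals. RRPE matches of both strands can overlap in 1 run of letters, as in NHP2. A match is a description of the letters and not a shown binding site.
NAN1: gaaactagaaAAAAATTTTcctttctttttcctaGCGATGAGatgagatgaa
UTP15: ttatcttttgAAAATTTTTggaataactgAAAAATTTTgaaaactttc
NHP2: aaaaactgaaAAAAATTTTTctgaaaaaaa
NOG2: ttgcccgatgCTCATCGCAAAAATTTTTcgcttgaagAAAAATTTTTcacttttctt
PWP2: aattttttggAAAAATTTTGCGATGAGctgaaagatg
NOP7: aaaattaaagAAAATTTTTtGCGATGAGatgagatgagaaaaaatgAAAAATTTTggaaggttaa

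A second element lies after the stop codon. The Puf4-type element TGTANATTA was searched on the coding strand in the 200 bases after the stop codon, and 16 members held it (28.1%), against 2.67% of 6002 genes. By side, 9 of 25 60S-side members (36.0%) and 3 of 22 40S-side members (13.6%) held it. The Puf3-type element TGTANATA was found after 4 members (7.02%), SOF1, EBP2, BRX1 and NOP7, against 14.1% of all genes. The sites are printed for these 4 genes, whose element is the sequence that Puf3p is known to bind, and for NHP2 and CBF5, which are partners in one particle and both hold the Puf4-type element. They lie at chrXII:129003-129030, plus strand (SOF1), chrXI:127055-127082, plus strand (EBP2), chrXV:185693-185720, minus strand (BRX1), chrVII:697339-697366, plus strand (NOP7), chrIV:88059-88087, plus strand (NHP2) and chrXII:507665-507693, plus strand (CBF5), with the element in capitals.
SOF1: ttatgttgtcTGTATATAcacatatgta
EBP2: gcaagaacacTGTATATAtccagaacgt
BRX1: tatcgaaagcTGTATATAtaaagaatat
NOP7: catttttgttTGTAGATAtagaaatacc
NHP2: gtaggccttcTGTATATTAtataatacta
CBF5: ttttttagtgTGTATATTAataacgtaaa

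**Figure D1:**
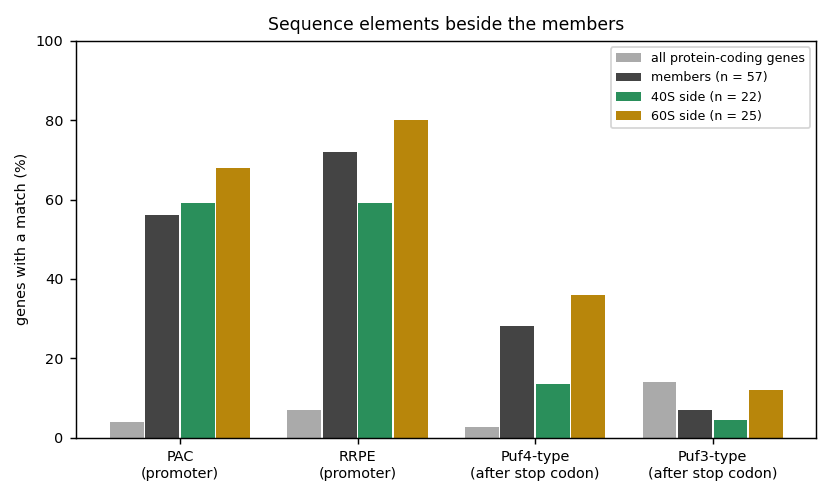
Percentage of genes with PAC or RRPE in the promoter window and with a Puf4-type or Puf3-type element in the 200 bases after the stop codon, for all nuclear protein-coding genes, the 57 members, and the 40S-side and 60S-side members. PAC was found in 56.1% of members and 3.93% of all genes, and the Puf3-type element in 7.02% and 14.1%.

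The labels were checked with the deleted gene. Values are RPKM, the reads of a gene scaled to its length and to the reads of the library on all listed genes. *PUF3* had RPKM values of 29.2 and 35.0 in WT and 0.113 and 0.280 in *PUF3Δ*, a log2 fold change of -4.79 ± 0.21 (SE, limma adjusted p = 8.7e-06). The libraries held between 6703910 and 8228693 reads on genes, and a member had between 237 and 4130 reads in a library. LYS2, which by general knowledge is deleted in BY4742 and intact in BY4741, the strain named in the methods, had between 1 and 4 reads per library. MET17, the gene that met15Δ0 removes, had between 5041 and 5868 reads per WT library and between 1120 and 1196 per *PUF3Δ* library. MF(ALPHA)1, a pheromone gene of α cells, had between 5560 and 18500 reads per library, while STE2, a receptor gene of a cells, had between 40 and 147 per library. The reads of all 4 libraries thus go against the alleles MATa and met15Δ0 of the labels, and not against the strain name BY4742. Besides NOP58, 6 members overlap a listed gene on the other strand that held at most 3 reads in any library. The median log2 fold change of the 5860 genes tested was -0.39. Median-of-ratios scaling moved that median by 0.37, to -0.01, and a loess correction for gene length moved it to -0.01. Results are therefore given for 3 fits side by side, as deposited, with median-of-ratios scaling, and with the length correction.

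As deposited, 36 of the 57 members were lower and 1 was higher in *PUF3Δ* at an adjusted p under 0.05 in limma, and 20 did not pass. These are 63.2% and 1.75% of the members, beside 54.2% lower and 18.9% higher among all genes tested, so the share of lower members was near that of all genes. The median log2 fold change of the members was -0.51, with quartiles of -0.83 and -0.21. With median-of-ratios scaling, 23 members (40.4%) were lower and 14 (24.6%) higher, beside 33.2% and 33.9% of all genes, and the median was -0.13. With the length correction, 26 (45.6%) were lower and 3 (5.26%) higher, beside 32.0% and 32.5% of all genes, and the median was -0.23. In all 3 fits, 20 members (35.1%) were lower, beside 27.2% of all genes, and NAN1 alone (1.75%) was higher, beside 17.2%. The WT and *PUF3Δ* values of 51 members did not overlap, beside 87.6% of all genes. Without WT replicate 2, the log2 fold changes of NOP7 and NOP14 were 0.71 and 0.55. Without WT replicate 1 they were -0.14 and -0.14. In bulk RNA, fewer cells with a transcript and less of it per cell cannot be told apart.

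The members' summed share of reads was 0.965% and 0.995% for the WT libraries, and 0.720% and 0.702% for the *PUF3Δ* libraries. The Wilson 95% intervals of these shares were 0.958% to 0.972% and 0.988% to 1.00% in WT, and 0.714% to 0.727% and 0.696% to 0.708% in *PUF3Δ*, and they cover counting error only. Both *PUF3Δ* libraries gave a smaller share than both WT libraries. The coefficient of deviation (CD) is here the standard deviation of RPKM over the members divided by their mean, without a log transformation. The paper's methods describe a CD taken on log values, so the values here are not on that scale. Over all members the CD came to 1.04 ± 0.0879 in WT and 0.854 ± 0.0131 in *PUF3Δ* (SD, n = 2). The 40S side had a CD of 0.753 ± 0.0888 in WT and 0.980 ± 0.00716 in *PUF3Δ*, and the 60S side one of 0.538 ± 0.0370 in WT and 0.413 ± 0.00985 in *PUF3Δ*. It was thus higher in *PUF3Δ* on the 40S side and lower on the 60S side, with no overlap between the libraries of the strains on either side. Without NSR1, the most abundant 40S-side member, left out after the values were seen, the 40S-side CD was 0.548 ± 0.00960 in WT and 0.521 ± 0.000855 in *PUF3Δ*, so it was then lower in *PUF3Δ*.

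**Figure D2:**
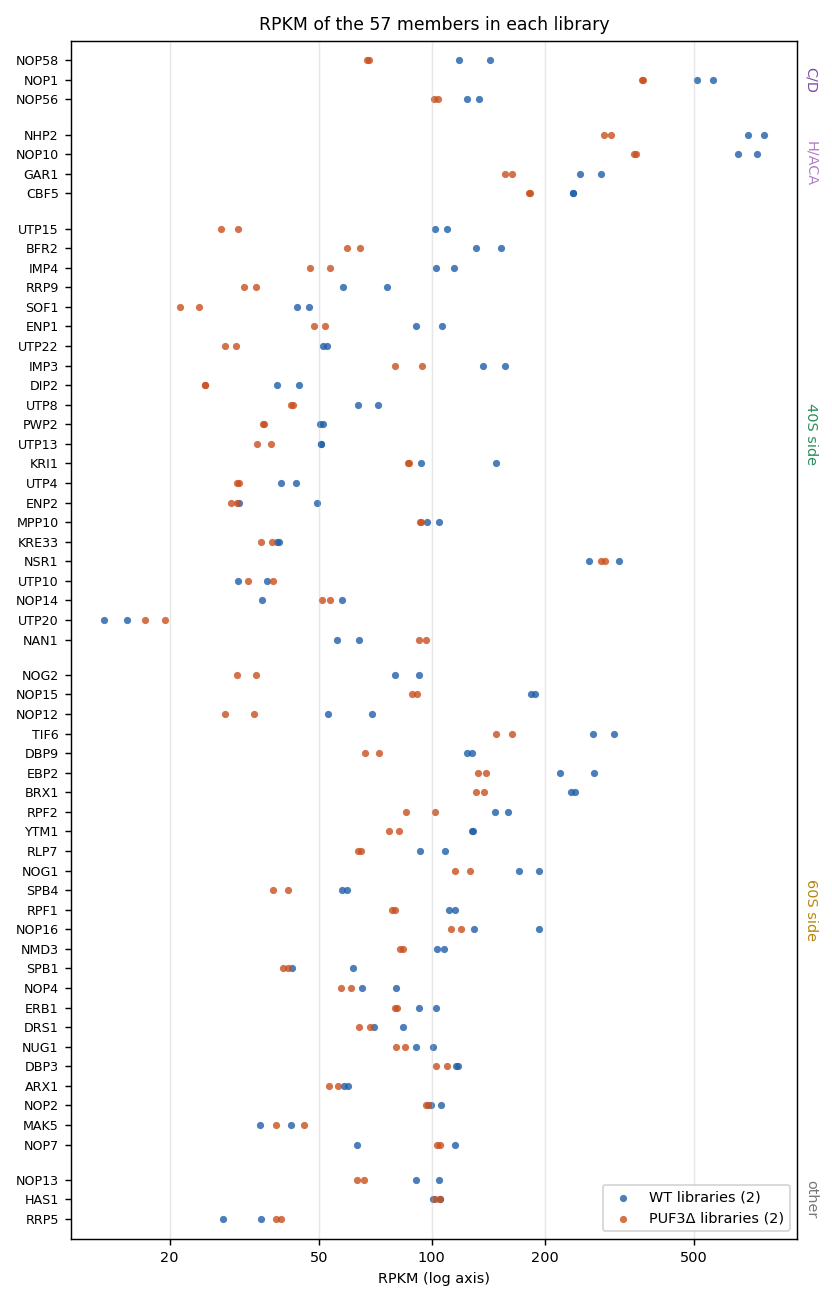
RPKM (log axis) of each of the 57 members, with 1 dot for each of the 2 WT and 2 *PUF3Δ* libraries, grouped by class and ordered within a class by fold change. The H/ACA proteins NHP2 and NOP10 have the highest values in WT and NOP1 in *PUF3Δ*, and the libraries of the strains overlap in 6 members, NSR1, NOP7, NOP14, MAK5, HAS1 and UTP10.

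All 7 snoRNP core protein genes were lower in *PUF3Δ* as deposited, beside 54.2% of all genes, and 3 of them, NHP2, NOP10 and NOP58, were lower in all 3 fits, beside 27.2% of all genes. Of the H/ACA proteins, NHP2 (YDL208W), which binds the guide RNA, had RPKM values of 768 and 696 in WT and 288 and 300.3 in *PUF3Δ*. The WT values were all more than 2-fold above those of *PUF3Δ*, a log2 fold change of -1.31 ± 0.08 (SE, limma adjusted p = 2.2e-05). NOP10 (YHR072W-A), the smallest of the 4 proteins, had 736 and 656 in WT and 351 and 347 in *PUF3Δ*. Its log2 fold change was -0.99 ± 0.08 (SE), and it became -0.24 with the length correction for this gene of 177 bases. GAR1 (YHR089C), which binds CBF5, had 283 and 249 in WT and 157 and 164 in *PUF3Δ*, a fall of 0.72 on the log2 scale that did not pass with the length correction (-0.09). CBF5 (YLR175W), the pseudouridine synthase itself, had 238 and 239 in WT and 183 and 181 in *PUF3Δ*. Its log2 fold change of -0.38 ± 0.07 (SE) was the smallest of the 4 in size and close to the median of all genes, and it was 0.0023 with median-of-ratios scaling.

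Of the box C/D proteins, NOP1 (YDL014W), the methyltransferase known as fibrillarin in other species, had RPKM values of 563 and 509.5 in WT and 363 and 366 in *PUF3Δ*. It fell by 0.55 ± 0.08 on the log2 scale (SE) as deposited, and did not pass in either of the other fits (-0.17 and -0.02). NOP58 (YOR310C) had 143 and 118 in WT and 68.0 and 67.2 in *PUF3Δ*, with a log2 fold change of -0.93 ± 0.11 (SE) and -0.60 after the length correction. It shares 254 bases with YOR309C, an identifier on the same strand that held up to 1203 reads, so its level is uncertain. NOP56 (YLR197W), its partner in the same particle, had 133 and 124 in WT and 104 and 101 in *PUF3Δ*, a log2 fold change of -0.33 ± 0.08 (SE), which turned to 0.06 with median-of-ratios scaling and to 0.01 with the length correction, neither past the threshold.

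On the 40S side, 13 of 22 members were lower, 1 was higher and 8 did not pass as deposited, and 9 were lower in all 3 fits, beside 54.2% lower, 18.9% higher and 27.2% lower in all 3 fits among all genes. The share of lower members, 59.1%, was near that of all genes. With median-of-ratios scaling 7 members of this side (31.8%) were called higher, near the 33.9% of all genes. They were NAN1, UTP20, NOP14, UTP10, NSR1, KRE33 and MPP10. The 9 lower in all 3 fits were UTP15, UTP8, DIP2, UTP22, IMP4, BFR2, RRP9, SOF1 and ENP1. The UTP-A complex is the first part of the small subunit processome to bind the precursor rRNA, and its members moved in both directions. UTP15 (YMR093W) had RPKM values of 109.9 and 102 in WT and 30.4 and 27.4 in *PUF3Δ*. All WT values were more than 3-fold above those of *PUF3Δ*, and its log2 fold change of -1.84 ± 0.10 (SE, limma adjusted p = 1.4e-05) was the lowest of the 57 members in each of the 3 fits. NAN1 (YPL126W), also called UTP17, had 55.7 and 64.1 in WT and 96.6 and 92.4 in *PUF3Δ*. It was the only member that rose as deposited, by 0.65 ± 0.10 (SE, limma adjusted p = 8.1e-04), and it was higher in both other fits as well (1.04 and 0.64). UTP8 (YGR128C) had 71.8 and 63.7 in WT and 42.3 and 42.6 in *PUF3Δ*, a log2 fold change of -0.66 ± 0.10 (SE). UTP4 (YDR324C) had 39.7 and 43.4 in WT and 30.6 and 30.2 in *PUF3Δ*, a log2 fold change of -0.44 ± 0.10 (SE) that did not pass with median-of-ratios scaling. UTP10 (YJL109C), a gene of 5310 bases, had 36.3 and 30.5 in WT and 37.8 and 32.4 in *PUF3Δ*, with overlap between the strains and a log2 fold change of 0.07 ± 0.13 (SE).

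The 3 members of the UTP-B complex, which also joins early, were all lower as deposited, beside 54.2% of all genes. DIP2 (YLR129W) had RPKM values of 38.8 and 44.4 in WT and 24.8 and 24.8 in *PUF3Δ* and a log2 fold change of -0.72 ± 0.11 (SE). PWP2 (YCR057C) had 50.5 and 51.5 in WT and 35.8 and 35.5 in *PUF3Δ*, a log2 fold change of -0.50 ± 0.09 (SE). UTP13 (YLR222C) had 50.8 and 50.7 in WT and 37.3 and 34.2 in *PUF3Δ*, a log2 fold change of -0.50 ± 0.10 (SE). With the length correction all 3 were lower as well, beside 32.0% of all genes. Only DIP2 passed with median-of-ratios scaling, beside 33.2% of all genes called lower. In the MPP10 complex, IMP4 (YNL075W) had 114 and 103 in WT and 47.3 and 53.5 in *PUF3Δ*, a log2 fold change of -1.09 ± 0.10 (SE). IMP3 (YHR148W) had 137 and 157 in WT and 94.1 and 80.0 in *PUF3Δ*, a log2 fold change of -0.75 ± 0.11 (SE) that did not pass with the length correction (-0.10). The strains did not overlap in either gene, as in 87.6% of all genes. MPP10 (YJR002W), the protein that holds them together, had 96.9 and 105 in WT and 93.3 and 93.7 in *PUF3Δ*, a log2 fold change of -0.11 ± 0.08 (SE), which did not pass and turned to 0.28, past the threshold, with median-of-ratios scaling.

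Among the other 40S-side members, BFR2 (YDR299W), a processome component, had RPKM values of 131 and 153 in WT and 64.5 and 59.6 in *PUF3Δ*, and fell by 1.18 ± 0.10 on the log2 scale (SE). RRP9 (YPR137W), a U3 snoRNP protein, had 58.0 and 76.2 in WT and 33.9 and 31.5 in *PUF3Δ*, a log2 fold change of -1.002 ± 0.14 (SE). ENP1 (YBR247C), which stays on the particle until the cytoplasm, had 106 and 90.8 in WT and 51.8 and 48.7 in *PUF3Δ*, a log2 fold change of -0.96 ± 0.10 (SE). SOF1 (YLL011W), another U3-associated protein, had 43.8 and 47.2 in WT and 24.0 and 21.4 in *PUF3Δ*, a log2 fold change of -0.97 ± 0.11 (SE). SOF1 lies on chromosome XII from 127523 to 128992 on the plus strand, 2808 bases from the deleted *PUF3*, and whether the deletion acts on it by position was not tested. In BFR2, RRP9, ENP1 and SOF1 each WT value was above each *PUF3Δ* value. Among all genes 87.6% had no overlap between the strains, in either direction. UTP22 (YGR090W), which joins the processome in the UTP-C complex, had 52.6 and 51.2 in WT and 30.1 and 28.0 in *PUF3Δ*, a log2 fold change of -0.82 ± 0.10 (SE), and with the length correction its value was -1.04. Higher levels without a call were seen in UTP20 (YBL004W), with 13.4 and 15.4 in WT and 19.4 and 17.2 in *PUF3Δ*. Its log2 fold change was 0.33 ± 0.14 (SE, limma adjusted p = 0.061), while it passed as higher with median-of-ratios scaling (0.70) and as lower with the length correction (-0.35). At 7482 bases it is the longest member. NSR1 (YGR159C), the yeast relative of nucleolin and the most abundant 40S-side member, had 316 and 262 in WT and 290.4 and 282 in *PUF3Δ*, with overlap between the strains and a log2 fold change of -0.01 ± 0.10 (SE), and it passed as higher in the other fits (0.38 and 0.42). KRE33 (YNL132W), which acetylates 18S rRNA, had 39.1 and 38.6 in WT and 35.0 and 37.5 in *PUF3Δ*, a log2 fold change of -0.10 ± 0.10 (SE).

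KRI1, ENP2 and NOP14, which act on the 40S side, and NOP7 of the PeBoW complex differed by more than 1.5-fold between the WT libraries, and in each of them the second library was the higher one. KRI1 (YNL308C) had RPKM values of 93.5 and 148 in WT and 86.3 and 86.7 in *PUF3Δ*, and ENP2 (YGR145W) had 30.6 and 49.3 in WT and 30.2 and 29.1 in *PUF3Δ*. NOP14 (YDL148C) had 35.2 and 57.8 in WT and 53.5 and 50.9 in *PUF3Δ*, with both *PUF3Δ* values between those of WT, and NOP7 (YGR103W) had 63.3 and 115 in WT and 103 and 105 in *PUF3Δ*, likewise. None of the 4 passed, with log2 fold changes of -0.44 ± 0.19, -0.38 ± 0.20, 0.20 ± 0.21 and 0.29 ± 0.24 (SE). Such a spread between WT libraries was seen in 7.02% of members and 5.02% of all genes tested, and between *PUF3Δ* libraries in 0 of the 57 members and 3.69% of all genes.

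**Figure D3:**
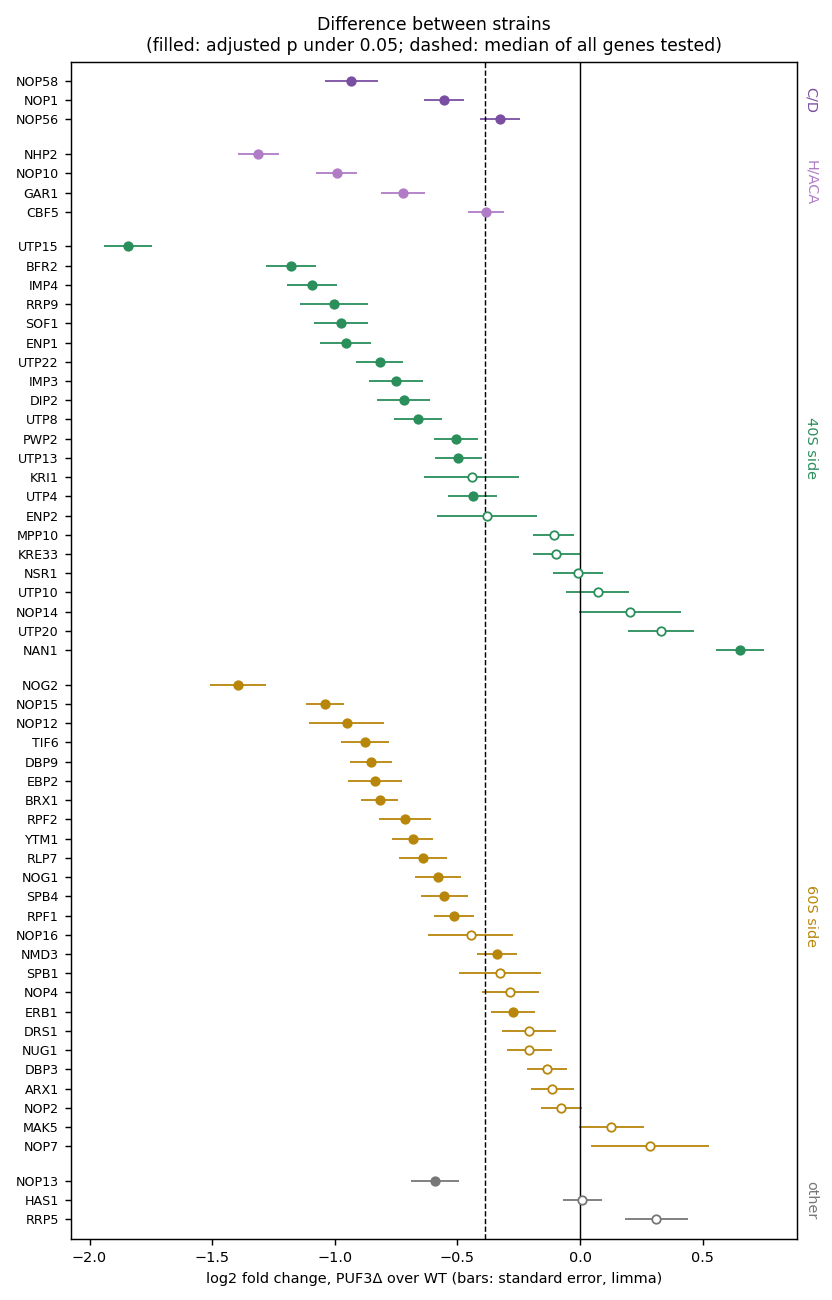
Log2 fold change (*PUF3Δ* over WT) of each member with its standard error from limma, by class. Filled dots passed an adjusted p of 0.05, the dashed line is the median of all genes tested (-0.39). UTP15 (-1.84) and NAN1 (0.65) are at the ends, and most members between the dashed line and 0 change sign with median-of-ratios scaling.

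On the 60S side, 15 of 25 members were lower, 0 were higher and 10 did not pass as deposited, and 8 were lower in all 3 fits. The shares of lower members as deposited and in all 3 fits were near the 54.2% and 27.2% of all genes. These 8 were NOG2, NOP15, NOP12, TIF6, DBP9, EBP2, BRX1 and YTM1. With median-of-ratios scaling, 5 members of this side (20%) were called higher, below the 33.9% of all genes. They were NOP2, NOP7, MAK5, DBP3 and ARX1. The GTPases are thought to act as checkpoints of pre-60S maturation. NOG2 (YNR053C) had RPKM values of 92.7 and 79.6 in WT and 34.1 and 30.2 in *PUF3Δ*. It fell by 1.39 ± 0.11 on the log2 scale (SE, limma adjusted p = 4.8e-05), the lowest value of this side in each of the 3 fits. NOG2 is the only member with an intron in R64, on chromosome XIV from 721771 to 722302, which holds the snoRNA gene SNR191, and the length used for its RPKM includes the intron. NOG1 (YPL093W) had 193 and 170.4 in WT and 127 and 116 in *PUF3Δ*, a log2 fold change of -0.58 ± 0.10 (SE). With median-of-ratios scaling NOG1 did not pass (-0.19). NUG1 (YER006W) had 101 and 90.8 in WT and 80.5 and 85.0 in *PUF3Δ*, a log2 fold change of -0.21 ± 0.09 (SE), which did not pass.

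The 6 DEAD-box helicases, enzymes that unwind RNA on the particles, differed from each other. DBP9 (YLR276C) had RPKM values of 124 and 128 in WT and 66.5 and 72.4 in *PUF3Δ* and fell by 0.85 ± 0.09 on the log2 scale (SE). SPB4 (YFL002C) had 57.5 and 59.5 in WT and 37.7 and 41.5 in *PUF3Δ* and fell by 0.55 ± 0.10 (SE). With median-of-ratios scaling SPB4 did not pass (-0.17). DRS1 (YLL008W) had 70.1 and 83.8 in WT and 64.02 and 68.5 in *PUF3Δ*, DBP3 (YGL078C) had 117 and 116 in WT and 109.7 and 103 in *PUF3Δ*, and MAK5 (YBR142W) had 34.9 and 42.2 in WT and 45.8 and 38.5 in *PUF3Δ*. Their log2 fold changes of -0.21 ± 0.11, -0.13 ± 0.08 and 0.13 ± 0.13 (SE) did not pass. HAS1 (YMR290C), which serves both subunits, had 105 and 101 in WT and 105 and 102 in *PUF3Δ*, a log2 fold change of 0.01 ± 0.08 (SE), with overlap between the strains. HAS1 passed as higher with median-of-ratios scaling (0.39) and with the length correction (0.35). RRP5 (YMR229C), which binds precursors of both subunits, had 27.8 and 35.1 in WT and 39.7 and 38.4 in *PUF3Δ*, a log2 fold change of 0.31 ± 0.13 (SE, limma adjusted p = 0.063). It passed as higher with median-of-ratios scaling (0.69) and had -0.13 with the length correction, without a call. NOP13, an RNA-binding nucleolar protein, fell by 0.59 ± 0.10 (SE) as deposited and did not pass in the other fits.

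Among the other pre-60S factors, TIF6 (YPR016C), which keeps the 60S precursor from joining the 40S subunit, had RPKM values of 307 and 269 in WT and 164 and 148 in *PUF3Δ*, a log2 fold change of -0.88 ± 0.10 (SE). NOP15 (YNL110C), an RNA-binding protein of early pre-60S particles, had 184 and 189 in WT and 91.4 and 88.8 in *PUF3Δ*, a log2 fold change of -1.04 ± 0.08 (SE). NOP12 (YOL041C) had 52.8 and 69.3 in WT and 28.2 and 33.6 in *PUF3Δ*, a log2 fold change of -0.95 ± 0.15 (SE). The Brix family proteins BRX1, RPF2 and RPF1 fell by 0.82, 0.71 and 0.51 on the log2 scale as deposited. RPF2 did not pass with the length correction (-0.20). RPF1, a gene of 888 bases, passed in neither other fit and had 0.05 with the length correction. EBP2 and RLP7 are early pre-60S factors, of which EBP2 fell by 0.83 and RLP7 by 0.64 as deposited. RLP7 did not pass in the other fits (-0.26 and -0.10). Of the PeBoW complex, which acts in 25S rRNA maturation, YTM1 (YOR272W) had 128 and 129 in WT and 82.0 and 77.0 in *PUF3Δ*, a log2 fold change of -0.68 ± 0.08 (SE). ERB1 (YMR049C) had 103 and 92.5 in WT and 80.8 and 80.0 in *PUF3Δ*, a log2 fold change of -0.27 ± 0.09 (SE). ERB1 did not pass in the other fits (0.11 and -0.21). The export factors differed too, as NMD3 fell by 0.34 ± 0.08 (SE), which turned to 0.05 with median-of-ratios scaling, and ARX1 had -0.11 ± 0.09 (SE) without a call. NOP2, NOP4, NOP16 and SPB1 did not pass, with log2 fold changes between -0.45 (NOP16) and -0.08 (NOP2). NOP2 (YNL061W) and SPB1 are methyltransferases of 25S rRNA, and NOP2 had 106 and 99.4 in WT and 98.0 and 96.7 in *PUF3Δ*.

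The 40S and 60S sides were then set side by side. The median log2 fold change was -0.50 over 22 40S-side members and -0.51 over 25 60S-side members, a difference of 0.01. As deposited, 13 (59.1%) and 15 (60%) of them were lower, near the 54.2% of all genes. The mean log2(RPKM + 1) of the 40S side minus that of the 60S side was -0.70 and -0.71 in the WT libraries and -0.70 and -0.74 in the *PUF3Δ* libraries, so the gap between the sides moved by less than the spread between the *PUF3Δ* libraries. The 40S-side genes are longer, with a median of 2133 bases against 1572. With the length correction the medians were -0.41 and -0.20, and 13 (59.1%) and 10 (40%) members were lower, beside 32.0% of all genes. The share on the 60S side was thus near that of all genes. The SD of the log2 fold change over members was 0.58 on the 40S side and 0.39 on the 60S side. No p is given for a score over members, and 2 against 2 libraries could not give an exact permutation p below 0.333.

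Ratios between partners within a library do not depend on the scaling of libraries, but they are not corrected for gene length. The first gene of the ratio is the shorter one in UTP15 over NAN1, NHP2 over CBF5, IMP4 over MPP10 and YTM1 over NOP7. It is the longer one in NOP58 over NOP56 and NOG2 over NUG1. NHP2 and CBF5 had log2 fold changes of -1.31 and -0.38 as deposited and -0.65 and -0.02 with the length correction. NOG2 and NUG1 had -1.39 and -0.21 as deposited and -1.20 and 0.12 with it. The 6 pairs of partners were picked after the values were seen, and their ratios are given as a description. UTP15 and NAN1 belong to one complex, and the ratio of their RPKM values was 1.97 and 1.59 in WT and 0.314 and 0.296 in *PUF3Δ*, a 5.84-fold difference of the means. In every WT library UTP15 was above NAN1, and in every *PUF3Δ* library it was below. The ratio of NHP2 to CBF5 was 3.23 and 2.92 in WT and 1.58 and 1.65 in *PUF3Δ*, and that of IMP4 to MPP10 was 1.18 and 0.982 in WT and 0.507 and 0.572 in *PUF3Δ*. NOP58 and NOP56 were near a ratio of 1 in WT and below it in *PUF3Δ*, with 1.07 and 0.949 in WT and 0.656 and 0.664 in *PUF3Δ*. The ratio of NOG2 to NUG1 was 0.919 and 0.877 in WT and 0.423 and 0.355 in *PUF3Δ*. For YTM1 over NOP7 it was 2.02 and 1.12 in WT and 0.794 and 0.731 in *PUF3Δ*, where the WT libraries lay far apart.

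**Figure D4:**
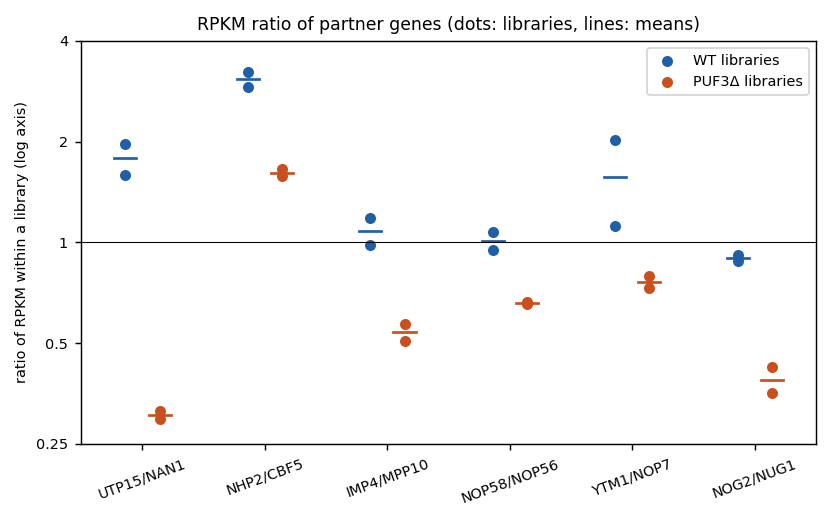
Ratio of the RPKM values of 2 partner genes within each library (log axis), with 1 dot per library and a line at the mean of each strain. UTP15 over NAN1 goes from a mean of 1.78 in WT to 0.305 in *PUF3Δ*, and the WT dots of YTM1 over NOP7 lie far apart.

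Gene length moved with the fold change. Across all 5860 genes tested, Spearman's rho between length and log2 fold change was 0.350, and across the 57 members it was 0.539, as a description, since genes of one library are not independent. Among all genes tested, of any length, 54.2% were lower as deposited, and the share at like length was not taken. Of the 19 shortest members, from 177 to 1452 bases, 17 were lower, with a median of -0.75. Of the 19 longest, from 1992 to 7482 bases, 8 were lower, with a median of -0.28. After the length correction the rho over members was -0.081, and the medians were -0.24 and -0.29. Because each library holds 1 strain, a length effect of library preparation cannot be told apart from the strain. UTP15, NOG2, UTP22 and BFR2 had the lowest values of the members after the correction, with -1.51, -1.20, -1.04 and -0.87.

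**Figure D5:**
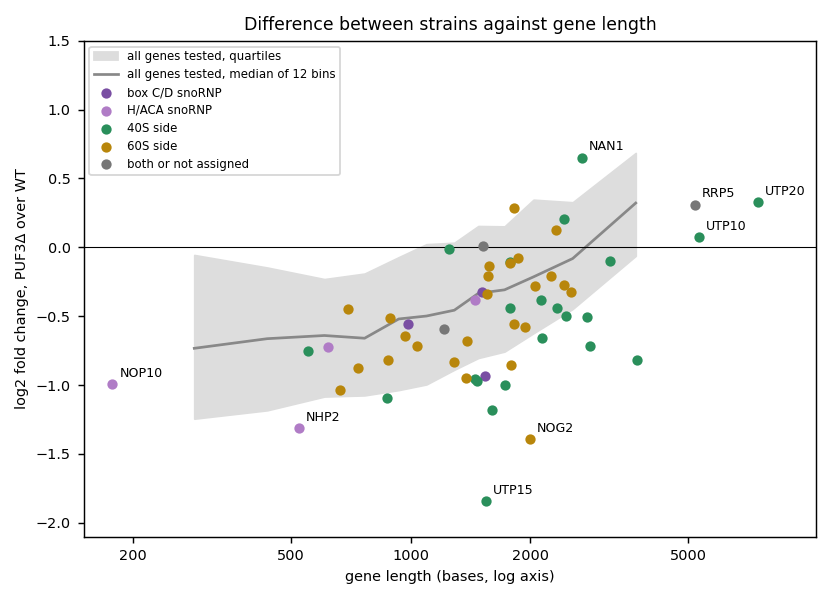
Log2 fold change (*PUF3Δ* over WT) against gene length (log axis) for the 57 members, coloured by class. The grey line and band are the median and quartiles of all genes tested in 12 bins of length, which rise with length as the members do, with UTP15 and NOG2 below the band.

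The sequence elements were set beside the fold changes. The 32 members with PAC had a median log2 fold change of -0.47 and 19 were lower (59.4%). The 25 without it had -0.72 and 17 were lower (68.0%). Among all genes tested 54.2% were lower. With RRPE the median was -0.51 (41 members) and without it -0.54 (16 members). With the Puf4-type element it was -0.52 (16 members) and without it -0.51 (41 members). The medians with and without RRPE, and with and without the Puf4-type element, lay close together. Of the 4 members with the Puf3-type element, SOF1, EBP2 and BRX1 were lower in *PUF3Δ* in all 3 fits (-0.97, -0.83 and -0.82 as deposited), and NOP7 did not pass. Among all genes 27.2% were lower in all 3 fits. A link to the element was not tested, and 4 members are few.

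Other genes of the pathway were taken from lists of 48 further 40S-side and 48 further 60S-side factors. Of the 40S-side list, 36 were lower and 1 was higher as deposited, with a median log2 fold change of -0.92, and 28 were lower in all 3 fits. These are 75% lower as deposited and 58.3% in all 3 fits. Among all genes 54.2% were lower and 18.9% higher as deposited, and 27.2% were lower in all 3 fits. Its lowest values were those of UTP6 (-2.14 ± 0.10, SE), LCP5 (-2.06 ± 0.09) and UTP18 (-1.98 ± 0.09), all processome proteins, and its highest were those of SAS10 (0.28 ± 0.21), UTP14 (0.33 ± 0.32) and RRP12 (0.50 ± 0.12), of which only RRP12 passed as deposited. UTP6 had RPKM values of 64.7 and 64.4 in WT and 13.5 and 14.2 in *PUF3Δ*, with no overlap, as in 87.6% of all genes. From the 60S-side list, 40 were lower and 1 was higher, with a median of -0.68, and 21 were lower in all 3 fits, which is 83.3% and 43.8%. IPI1 (-2.54 ± 0.16), SSF1 (-1.91 ± 0.12) and CGR1 (-1.87 ± 0.14) had its lowest values. RSA1 (0.14 ± 0.12), URB1 (0.24 ± 0.14) and REA1 (0.59 ± 0.14) had its highest. REA1, the longest gene of the list, passed as higher as deposited and as lower with the length correction (-0.52). The medians of both lists were below that of the members, -0.51.

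Genes that work with the members were counted too. Of 9 RNA polymerase I subunit genes, 8 were lower and 1 was higher as deposited, beside 54.2% and 18.9% of all genes, with a median of -1.04. The higher one, RPA190, named after its values were seen, codes for the largest subunit and had 0.30 ± 0.09 (SE) as deposited and -0.11 with the length correction. Of 132 cytosolic ribosomal protein genes, 130 were lower and 0 higher, with a median of -1.09, and 104 were lower in all 3 fits. These are 98.5% and 78.8%, beside 54.2% and 27.2% of all genes. Regulators of this pathway did not share a direction. IFH1, a coactivator of ribosomal protein genes, had RPKM values of 55.5 and 70.0 in WT and 43.0 and 38.2 in *PUF3Δ*. It fell by 0.61 ± 0.13 on the log2 scale (SE), and TOD6, a repressor that binds PAC, fell by 0.56 ± 0.08 (SE). Neither IFH1 nor TOD6 passed with median-of-ratios scaling, and both passed as lower with the length correction (-0.75 and -0.24). DOT6, the relative of TOD6, had 652 and 731 in WT and 797 and 781 in *PUF3Δ*, a log2 fold change of 0.19 ± 0.08 (SE), and STB3, a repressor that binds RRPE, had 227 and 242 in WT and 261 and 275 in *PUF3Δ*, a log2 fold change of 0.19 ± 0.08 (SE), both without a call as deposited and both higher in the other fits. SFP1, an activator, had -0.25 ± 0.10 (SE), FHL1 had 0.07 ± 0.22 and the kinase gene SCH9 had 0.07 ± 0.08, also without a call as deposited. With median-of-ratios scaling SFP1 had 0.14, and SCH9 passed as higher (0.46). TOR1, another kinase gene, rose by 0.50 ± 0.14 (SE) as deposited, and had -0.17 with the length correction.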

How the data were processed

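Per the methods, SOAP2 aligned reads to the yeast genome, allowing up to 2 mismatches, and the authors deposited 1 RPKM value for each gene in each library. The submitters' processing notes name R64. The SOAP2 version, the strand setting and the handling of multiply mapped reads are not given in the sources used here. Whole reads were recovered from RPKM and gene length for 100% of values (within 0.05 of a read). Gene coordinates in the files equal those of R64 for 16.6% of 5984 matched genes, so positions and sequences were taken from R64 by identifier. All 57 members matched.

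*PUF3Δ* was tested against WT on log2(RPKM + 1) by limma 3.58.1 (eBayes with trend, no replicate block) in R 4.3.3. The 5860 genes averaging 1 RPKM or more entered, with Benjamini-Hochberg adjustment over all genes. The pseudocount understates changes of low genes. Tested on simulated reads for this comparison, limma recovered 96.5% of 199 planted changes among 5885 genes and made 7 false calls. The planted changes were larger than the median change of the members. The simulation held neither a shift of most genes between strains nor a trend with gene length. These rates therefore do not carry over to the calls reported here. Python 3.11.15 was used otherwise. Replicates differed by more than sampling noise (chi-square per degree of freedom 11.7 in WT and 4.60 in *PUF3Δ*).

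Members, classes and lists were chosen with earlier results of these data known. Libraries were given in full for the snoRNP proteins, GTPases, helicases, the most abundant members, the 3 lowest and 3 highest of each side and members called higher, and for most of those not called (the rule asked for up to 10). Alternatives were other pseudocounts, filters, scalings, a length correction, a replicate block, voom, no trend, and leaving out each library.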

Additional observations from a re-analysis of the deposited data

How the results depend on the processing

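With median-of-ratios scaling, 23 members were called lower and 14 higher, against 36 and 1 as deposited, and their median log2 fold change was -0.13. Quantile normalization called 24 lower and 10 higher, with a median of -0.21 and a gene length rho of 0.631. The length correction called 26 lower and 3 higher. Its median was -0.23, its 40S-minus-60S difference -0.21 and its gene length rho -0.081. On the recovered reads, voom called 38 lower and 3 higher, and eBayes without trend called 36 lower and 2 higher. Shares of all genes were taken for the 3 main fits only. The counts of other settings, here and below, therefore have no such share beside them. Leaving out 1 library at a time gave 33 to 41 members lower, 1 to 5 higher, medians of -0.58 to -0.50, side differences of -0.07 to 0.04 and a gene length rho of 0.476 to 0.546. The shorter PAC core GATGAG was in 54 members. Some genes changed sign. With median-of-ratios scaling 14 members did so. Of these, NOP56 had 0.0589, NSR1 0.38, CBF5 0.0023, NOP2 0.31, ERB1 0.11, DBP3 0.25 and MPP10 0.28. The others were NMD3 (0.0459), ARX1 (0.27), KRE33 (0.28), NOP4 (0.10), NUG1 (0.18), DRS1 (0.18) and SPB1 (0.05). With quantile normalization the genes that changed sign included NOP2 (0.25), ERB1 (0.0731), UTP4 (0.0111), NMD3 (0.0027), ARX1 (0.27) and KRE33 (0.35). With the length correction NOP56 had 0.0142, NSR1 0.42, RPF1 0.0516, NOP2 0.16, NOP16 0.17, NUG1 0.12, DBP3 0.19, MPP10 0.15 and ARX1 0.14. In the other direction UTP20 had -0.35, UTP10 -0.39, RRP5 -0.13, TOR1 -0.17 and REA1 -0.52. Leaving out 1 library moved FHL1 between -0.30 (without WT replicate 1) and 0.45 (without WT replicate 2). The cause was not tested. UTP15 and NAN1 kept their direction and call in all alternatives run.

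The replicate block gave 38 members lower and 1 higher. Differences between replicates 1 and 2 correlated between the strains with r = -0.01 over 5860 genes, so no difference shared by replicate number was seen. This cannot tell whether the libraries were grown or prepared in pairs, which labels and methods do not state. The length correction with the replicate block called 4 members higher, with a median of -0.23, a side difference of -0.21 and a gene length rho of -0.081. In that fit the genes that changed sign included NOP56 (0.0142), NSR1 (0.42), RPF1 (0.0516), UTP10 (-0.39), TOR1 (-0.17) and REA1 (-0.52). With 2 libraries a strain, changes within the spread between WT libraries, such as those of NOP7 and NOP14, could not be resolved.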
